A study of Mus musculus with 48 samples.

Results

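Control mouse liver was compared between zeitgeber time 0 (ZT0) and ZT4, the first 4 h of the subjective day, to find which transcripts were switched on or off within that step. The members are 8 of the study's 48 liver libraries, chosen by genotype and time alone: 4 control mice at ZT0 and 4 at ZT4. The 8 knockout libraries of the same times served for comparison.

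All mice were C57BL/6 males of 4 to 6 months that carried floxed Bmal1 alleles (Bmal1 f/f). The control mice, WT in the labels, were littermates that lacked Cre, and the knockout (KO) mice also carried EsrCre, a Cre recombinase active in all tissues once tamoxifen is given. The controls are therefore floxed mice treated with tamoxifen, not untreated wild-type animals: both genotypes were gavaged with 5 mg of tamoxifen a day for 5 days. After a further 7 days they were kept in constant darkness for 36 h and killed in darkness at 4 h intervals spanning 20 h. The control mice of ZT0 were numbers 42, 45, 47 and 48 (27 to 32 g), and those of ZT4 were numbers 2, 3, 4 and 8 (27 to 32 g). Mouse 45 of ZT0 and mouse 8 of ZT4 were housed individually and have no cage letter. The cages of the other 3 mice have the letter C at ZT0 and the letter A at ZT4, and no cage gave mice to both times. Cage set and time can thus not be told apart among the group-housed mice of the control step. Whether the ZT0 mice were killed 4 h before or 20 h after the ZT4 mice is not given in the sources used here.

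The clock of a liver cell is a loop of transcription. The protein of Arntl, BMAL1, forms a dimer with CLOCK or NPAS2 that binds E-box elements and activates the Per and Cry repressors, the REV-ERB receptors Nr1d1 and Nr1d2, and output factors such as Dbp and Tef. REV-ERB proteins in turn repress Arntl, Npas2, Clock, Cry1 and Nfil3 through ROR elements, and DBP and its relatives bind D-box elements in many liver genes. In mouse liver the hours after lights-on, or the matching hours of darkness, are the time in which E-box output rises and the activators fall.

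The 8 control libraries held 33663327 to 33935263 counts each. Levels are given in CPM, counts scaled to library size, and 1 CPM equals about 33.8 reads. Each library correlated with the others of its group at a mean r of 0.983 to 0.989. For pairs of control mice within a group, the squared count difference of each gene was divided by that expected from counting error. The mean over genes was 34.3 to 123, so no pair agreed within counting error. Counts were not scaled for it, and genes with many counts weigh most in this mean. The tissue label held: the 17 hepatocyte marker genes summed to 54392 to 61329 CPM at ZT0 and 60722 to 66400 CPM at ZT4, and none was at 0. None of the 17 passed the test by edgeR, and DESeq2 called 1. At an unadjusted p under 0.05 there were 4, against 23.6% of all genes tested. Among the clock genes, mouse 42 and, for Dbp, mouse 48 of ZT0 stood apart from their group, as did mouse 8 of ZT4. Mouse 42 of ZT0 had 2 CPM of Nr1d1, against 27.8 to 51.9 in the other ZT0 mice and a ZT20 mean of 3.90. Its Cry1 level was 54.3 CPM, against 12.9 to 26.0 and a ZT20 mean of 55.8. Mouse 8 of ZT4 had 84.4 CPM of Dbp, against 11.7 to 23.8 in the other ZT4 mice and a ZT8 mean of 146. Mouse 8 was also the individually housed mouse of its group, and with housing in the model 247 genes were called higher and 374 lower. Each control group held 1 such mouse, so housing was balanced across the step. That fit takes 1 housing effect over all 48 libraries, and what sets mouse 8 apart was not tested. The levels given lay toward the ZT20 means for mouse 42 and toward the ZT8 mean for mouse 8, and results are given without these mice where it matters.

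In control liver, 664 of 14836 genes tested changed between ZT0 and ZT4, which is 4.48% (edgeR quasi-likelihood test over all 48 libraries, Benjamini-Hochberg adjusted p under 0.05, "called" below). Of these, 267 genes (1.8%) were higher at ZT4 and 397 (2.68%) were lower. Most of the changes were small. Only 24 rises and 50 falls were at least 2-fold, and the median log2 fold change was 0.37 among the rises and -0.56 among the falls, against 0.0019 over all genes tested. The levels of the 4 ZT0 and 4 ZT4 mice did not overlap for 2216 genes (14.9% of those tested), and these included 235 of the called rises and 349 of the called falls. With total counts in place of TMM scaling, the median of all genes moved to -0.0912 and the split became 97 higher and 852 lower.

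The number of calls rested on single mice. Without mouse 8 of ZT4, 6 rises and 18 falls were called. Without mouse 3 of ZT4 the counts were 48 and 96, without mouse 48 of ZT0 57 and 121, without mouse 45 101 and 256, without mouse 42 130 and 244, without mouse 47 151 and 314, and without mouse 2 160 and 222. The mouse left out leaves 3 mice in its group. Of the 77 genes named by rule or after their values were seen, 56 were called, and 50 of these 56 lost the call without mouse 8 of ZT4. The 5 named genes called under each of the 20 other settings tried at the same threshold were Dbp, Slc34a2, Gfod1, Nbeal2 and Ahctf1.

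A gene was counted as switched when it was called, changed at least 4-fold with no overlap between the mice of ZT0 and ZT4, had a mean under 1 CPM in the low group and reached 1 CPM in each mouse of the high group. By this rule 1 gene was switched on, Dbp, and 0 were switched off. The counts were also 1 and 0 by DESeq2 and with unadjusted p-values. Dropping the 1 CPM conditions left 9 genes with at least a 4-fold change. The 4 rises were Dbp, Rgs16, Bhlhe41 and Nr1d1, and the 5 falls were Slc34a2, Cdkn1a, Npas2, Apln and Csmd1. With the low level set at 2 CPM instead of 1 CPM, Rgs16 and Bhlhe41 joined Dbp as switched on. Apln and Csmd1 were not switched off by the rule because they were under 1 CPM on average at both times, while Slc34a2, Cdkn1a and Npas2 were still above 1 CPM at ZT4.

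**Figure D1:**
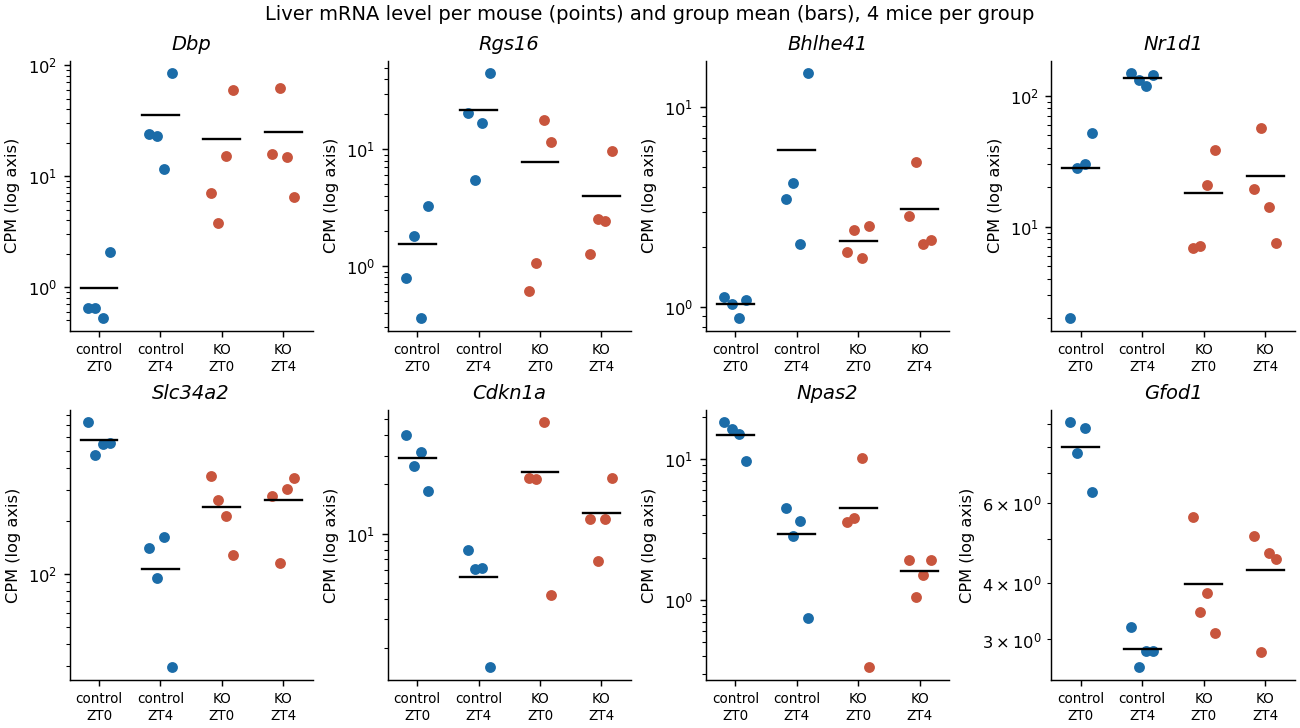
Level in CPM (log axis) of 8 genes in each mouse (points) with the group mean (bars), for control and KO liver at ZT0 and ZT4, 4 mice per group. In control liver the points of ZT0 and ZT4 do not overlap for any of the 8 genes, and in KO liver they overlap for each.

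Promoters were looked up for the 4-fold genes with at least 5 CPM, because members of both directions are textbook targets of clock elements. The windows run from 250 bases before to 50 after the start of transcription (RefSeq, build GRCm38.p6). Those of Dbp, Rgs16, Slc34a2, Cdkn1a and Npas2 held none of the searched letters, which says nothing about sites elsewhere in these genes. Bhlhe41 held an E-box, CACGTG. Nr1d1 held a variant, the E-prime box, which is CACGTT on the other strand. Both windows are shown 5′ to 3′ on the gene's strand, with the element in capitals. The Bhlhe41 window is chr6:145865371-145865670, minus strand, and its element starts 153 bases before the start site. The Nr1d1 window is chr11:98775328-98775627, minus strand, and its element starts 28 bases before the start site.
Bhlhe41: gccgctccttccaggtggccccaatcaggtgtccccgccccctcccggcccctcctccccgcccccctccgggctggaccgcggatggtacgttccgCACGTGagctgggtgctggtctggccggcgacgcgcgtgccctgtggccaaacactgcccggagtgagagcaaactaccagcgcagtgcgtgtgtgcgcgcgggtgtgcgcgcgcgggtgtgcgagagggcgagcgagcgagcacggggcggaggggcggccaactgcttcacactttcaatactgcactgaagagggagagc
Nr1d1: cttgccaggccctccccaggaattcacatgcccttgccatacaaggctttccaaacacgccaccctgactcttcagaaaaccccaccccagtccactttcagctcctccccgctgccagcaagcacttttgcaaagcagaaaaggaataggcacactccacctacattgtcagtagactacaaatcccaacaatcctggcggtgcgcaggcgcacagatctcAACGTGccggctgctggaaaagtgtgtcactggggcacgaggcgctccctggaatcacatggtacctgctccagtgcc
Both strands were searched for the E-box and E-prime box as spelled above. The D-box was searched as TTATGTAA. A D-box variant, TTACGTAA, was searched as well. The ROR element was searched as TNAGGTCA. Of the 32851 windows of the reference table, 7.15% held the E-box, 4.68% the E-prime box, 0.938% the D-box, 0.119% its variant and 4.58% the ROR element. Over all genes that rose, 23 of the 196 with a window held the E-box (11.7%). Among those that fell it was 23 of 276 (8.33%), and among all tested genes with a window 1142 of 10060 (11.4%). The share among the rises was thus close to that of all tested genes.

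The E-box driven clock and output genes rose where they were called. Of 15 such genes 7 were higher at ZT4 and 0 lower (Dbp, Bhlhe41, Nr1d1, Nr1d2, Per3, Tef and Cry2). Over all genes tested the shares were 1.8% higher and 2.68% lower. The median log2 fold change of the 15 was 1.18 against 0.0019 over all genes. Without mouse 42 of ZT0, 6 of the 15 were higher. The counts were 4 without mouse 45 or 47 of ZT0 or mouse 2 or 3 of ZT4, 5 without mouse 48 of ZT0, and 1 without mouse 8 of ZT4, when the median was 0.75. In KO liver the median of the same 15 genes was 0.13, and 0 were called.

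Dbp (ENSMUSG00000059824, mm9 chromosome 7, 52960458 to 52965525), a transcription factor that binds D-boxes, made the largest change. Its level was 0.648, 0.642, 0.522 and 2.08 CPM in ZT0 mice 42, 45, 47 and 48. It was 23.8, 23.0, 11.7 and 84.4 CPM in ZT4 mice 2, 3, 4 and 8. Each ZT4 mouse was thus above each ZT0 mouse, with mouse 48 high among the ZT0 mice and mouse 8 high among the ZT4 mice. The log2 fold change was 5.18 ± 0.97 (SE, adjusted p = 0.00518), and the means were 0.973 ± 0.740 and 35.7 ± 32.9 CPM (SD, n = 4 each). Without mouse 8 the log2 fold change was 4.30 with an adjusted p of 0.0464. The rule for a switched gene was met narrowly at the low end, since the ZT0 mean lies just under 1 CPM. Without mouse 42, 45 or 47 of ZT0 no gene met it.

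Bhlhe41, which encodes the E-box repressor DEC2, stood at 1.13, 1.03, 0.879 and 1.09 CPM at ZT0 and at 3.48, 4.2, 2.08 and 14.7 CPM at ZT4. The ZT0 mice were close together and mouse 8 of ZT4 stood far above the rest. The log2 fold change was 2.56 ± 0.54 (SE, adjusted p = 0.0118), and 1.65 without mouse 8 (adjusted p = 0.103). Rgs16, a regulator of G protein signalling that is not in the clock lists, stood at 0.789, 1.81, 0.357 and 3.25 CPM at ZT0 and at 20.3, 5.44, 16.6 and 44.7 CPM at ZT4. Both groups spread widely but did not overlap. The log2 fold change of Rgs16 was 3.80 ± 1.05 (SE, adjusted p = 0.0352). Its call ended without any one of mice 42, 45, 47 or 48 of ZT0 or mouse 8 of ZT4 (highest adjusted p = 0.126), and its log2 fold change then lay between 3.17 and 4.45.

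The REV-ERB receptors rose together in level. Nr1d1 (ENSMUSG00000020889), which encodes REV-ERBα, stood at 2, 27.8, 29.9 and 51.9 CPM at ZT0 and at 148, 130, 119 and 144 CPM at ZT4. Mouse 42 was far below the other ZT0 mice, whereas the ZT4 mice were close together. The log2 fold change was 2.27 ± 0.65 (SE, adjusted p = 0.0384). Its call ended without any one of mice 42, 45 and 47 of ZT0 and mice 2, 3 and 8 of ZT4 (highest adjusted p = 0.103). Nr1d2 (REV-ERBβ) stood at 14.3, 32.6, 27.0 and 59.1 CPM at ZT0 and at 86.8, 107, 89.5 and 141 CPM at ZT4. It rose by 1.67 ± 0.35 on the log2 scale (SE, adjusted p = 0.0118; 0.0605 without mouse 8).

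The remaining called members changed less. Per3, a period gene, went from 3.71 ± 2.10 to 11.3 ± 6.70 CPM (SD, n = 4 each; log2 1.61, adjusted p = 0.0482). Tef, a D-box factor related to DBP, went from 46.4 ± 11.3 to 105 ± 46.2 CPM (log2 1.18, adjusted p = 0.0118). Cry2, a relative of Cry1, went from 30.9 ± 2.4 to 39.6 ± 4.25 CPM (log2 0.36, adjusted p = 0.0394). The groups overlapped for Per3 and Cry2 and not for Tef, and none of the 3 calls held without mouse 8 (adjusted p = 0.215, 0.0964 and 0.143 for Per3, Tef and Cry2).

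The other 8 E-box genes did not pass. Gm129, also known as Ciart, which encodes a repressor of BMAL1, had the second largest change of the clock lists, from 0.169, 0.0558, 0.385 and 0.182 CPM at ZT0 to 1.36, 0.680, 0.444 and 3.88 CPM at ZT4. The groups did not overlap, but the log2 fold change of 2.97 ± 1.03 missed the threshold (SE, adjusted p = 0.0777; DESeq2 called it). The period genes Per1 and Per2 had log2 fold changes of 1.2 (adjusted p = 0.155) and 0.16 (adjusted p = 0.844). Bhlhe40, which encodes DEC1, had 0.71 (adjusted p = 0.121), with mouse 42 of ZT0 at 86.8 CPM and the other ZT0 mice at 30.5 to 38.6 CPM. Without mouse 42 Bhlhe40 was called (log2 1.19, adjusted p = 0.0215). Wee1, Usp2, Hlf and Nampt lay between -0.02 and 0.30. The small changes of Per2 and Usp2 also leaned on mouse 42 of ZT0. It had 19.8 CPM of Per2 against 2.81 to 7.01 in the other ZT0 mice. For Usp2 it had 25.5 CPM against 4.70 to 9.81. Their log2 fold changes without mouse 42 were 1.02 for Per2 and 0.88 for Usp2, and neither gene was called in any setting.

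The activators and REV-ERB-repressed clock genes went the other way. Of 6 such genes 3 were lower, against 2.68% of all genes tested, and 0 higher, with a median of -1.11. The 3 were Npas2, Cry1 and Nfil3. Without mouse 8 of ZT4 none of the 6 was called, and without mouse 42 of ZT0, mouse 2 or mouse 3 of ZT4 2 were called. In KO liver the median of the 6 genes was -0.17, with 0 called.

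Npas2 (ENSMUSG00000026077), the partner of BMAL1 that can replace CLOCK, stood at 18.2, 16.2, 15 and 9.75 CPM at ZT0 and at 4.49, 2.84, 3.66 and 0.746 CPM at ZT4. The groups were far apart, with mouse 48 lowest at ZT0 and mouse 8 lowest at ZT4. The log2 fold change was -2.33 ± 0.59 (SE, adjusted p = 0.024). The call ended without mouse 3 or mouse 8 of ZT4 (adjusted p = 0.103 without mouse 8). Cry1, a repressor of BMAL1 and CLOCK, stood at 54.3, 14, 26.0 and 12.9 CPM at ZT0 and at 7.15, 11.3, 11 and 6.45 CPM at ZT4. It fell by 1.58 ± 0.39 on the log2 scale (SE, adjusted p = 0.021), and by 0.98 without mouse 42 of ZT0 (adjusted p = 0.123). Without mouse 2 or mouse 8 of ZT4 the call ended as well.

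Nfil3, the D-box repressor that competes with DBP, stood at 59.0, 66.6, 63.9 and 36.3 CPM at ZT0 and at 24.6, 29.1, 33.0 and 18.3 CPM at ZT4. It fell by 1.10 ± 0.27 (SE, log2 scale, adjusted p = 0.0198), and the call ended without mouse 8 (adjusted p = 0.101). Arntl itself, the floxed gene, stood at 47.5, 38, 37.3 and 35 CPM at ZT0 and at 23.9, 19.5, 23.7 and 5.79 CPM at ZT4. The 2 groups of Arntl did not overlap, but its log2 fold change of -1.11 ± 0.47 did not pass (SE, adjusted p = 0.141). Clock did not pass either (-0.56, adjusted p = 0.13). None of the 10 other clock components measured was called by edgeR or DESeq2. At an unadjusted p under 0.05 there were 2, against 23.6% of all genes tested. The log2 fold changes of the 10 ran from -0.36 (Rora) to 0.09 (Nono).

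**Figure D2:**
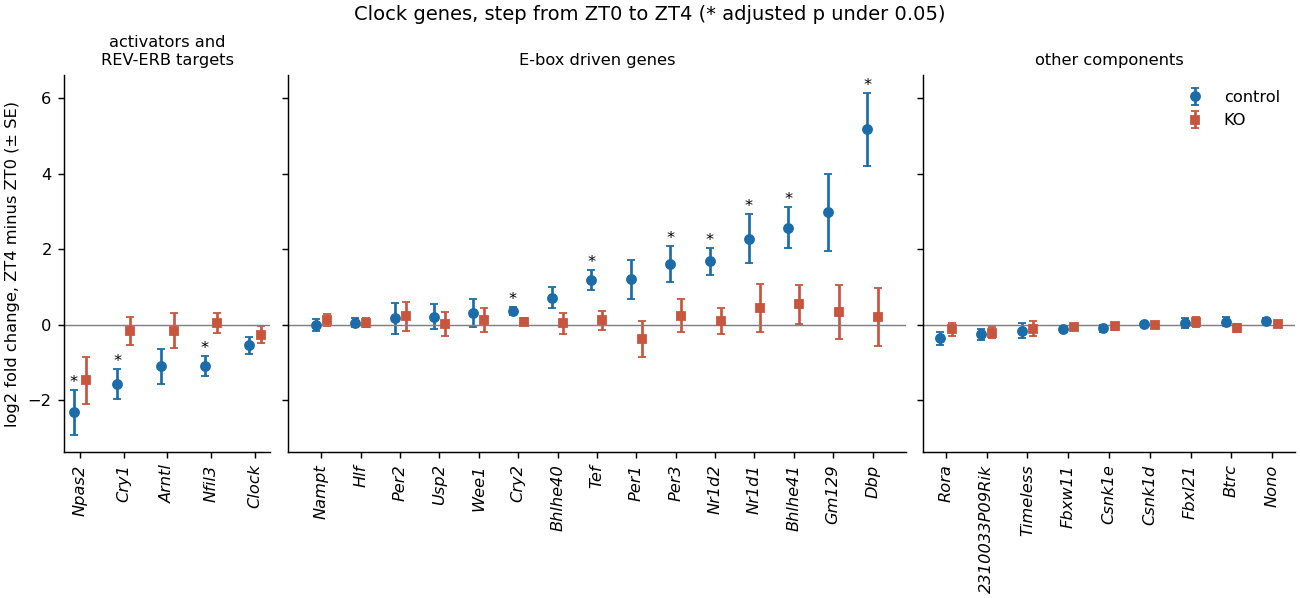
Log2 fold change from ZT0 to ZT4 with its SE for clock genes in control (circles) and KO (squares) liver, 4 mice per group, in the 3 lists described; an asterisk marks an adjusted p under 0.05 in control. Control values run from -2.33 (Npas2) to 5.18 (Dbp), and no KO value is called.

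Beyond the clock lists, the largest falls at 5 CPM or more were in Slc34a2 and Cdkn1a. Slc34a2 (ENSMUSG00000029188), a sodium-dependent phosphate transporter, stood at 724, 471, 543 and 556 CPM at ZT0 and at 140, 95.2, 163 and 29.5 CPM at ZT4. The groups were separated by a wide gap, and mouse 8 was lowest. The log2 fold change was -2.42 ± 0.40 (SE, adjusted p = 0.00179), between -2.70 and -2.11 across all settings, and the gene was called in each. Cdkn1a, which encodes the cell cycle inhibitor p21, stood at 40.1, 25.9, 31.3 and 18.2 CPM at ZT0 and at 7.94, 6.06, 6.13 and 1.52 CPM at ZT4. It fell by 2.41 ± 0.52 on the log2 scale (SE, adjusted p = 0.0118), and the adjusted p was 0.0639 without mouse 8.

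The other 4-fold falls were in genes of very low level, named after their values were seen. Apln, which encodes the peptide hormone apelin, went from 0.487 ± 0.476 to 0.0873 ± 0.0482 CPM, and Csmd1, a large membrane protein, from 0.424 ± 0.277 to 0.0445 ± 0.0382 CPM (SD, n = 4 each). The 2 mean levels of ZT4 correspond to about 3 reads or fewer per library. Both genes were highest in mouse 48 of ZT0, at 1.196 CPM of Apln and 0.832 CPM of Csmd1 against at most 0.335 and 0.363 CPM in the other ZT0 mice. Without it the log2 fold change was -1.49 for Apln (adjusted p = 0.196), under 4-fold, and -2.62 for Csmd1 (adjusted p = 0.0582). Just inside the 4-fold threshold were Nr1d1 and Npas2. Just outside it were Esm1 (-1.90), an endothelial proteoglycan gene, and Loxl4 (-1.81), a lysyl oxidase gene. Esm1 too was highest in mouse 48 (30.2 CPM against 7.58 to 13 in the other ZT0 mice), without which it was at -1.28 (adjusted p = 0.169).

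Among called genes with at least a 2-fold change and 20 CPM or more in the higher group, a choice made after the values were seen, the following lay outside the clock lists. Ahctf1, which encodes a protein of the nuclear pore, went from 172 ± 31.4 to 75.4 ± 19 CPM (SD, n = 4 each; log2 -1.19, adjusted p = 0.00222). Ppard, the fatty acid receptor PPARδ, fell by 1.67 (adjusted p = 0.00903), from 52.7, 23.3, 31.0 and 11.6 CPM to 10.8, 8.87, 9.82 and 7.85 CPM. Nt5e, the ectoenzyme that makes adenosine, fell by 1.05 (adjusted p = 0.0436). On the rising side were Mcm10, a DNA replication factor (28.3 ± 8.45 to 69.6 ± 15.8 CPM, log2 1.3, adjusted p = 0.018), and Stbd1, which binds glycogen (39.4 ± 5.34 to 82.4 ± 35.5 CPM, log2 1.06, adjusted p = 0.0127). Of these 5 genes Ahctf1 alone was called without mouse 8 of ZT4. There the highest adjusted p of the other genes was 0.16 (Nt5e).

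Lists of liver metabolism held few called genes. Glycogen metabolism had 1 of 14 higher and 1 lower, with a median of 0.15. Gys2, the liver glycogen synthase, went from 99.9 ± 9.60 to 139 ± 37.5 CPM (log2 0.48, adjusted p = 0.0423). Ppp1r3b, which brings phosphatase to glycogen, stood at 650, 163, 291 and 167 CPM at ZT0 and at 204, 138, 142 and 90.8 CPM at ZT4. The change of -1.14 in Ppp1r3b (adjusted p = 0.0283) leaned on mouse 42 of ZT0, without which it was -0.53 (adjusted p = 0.227).

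In gluconeogenesis and glycolysis 2 of 22 rose, the transcription factor genes Klf10 (log2 1.18, adjusted p = 0.0384) and Klf15 (0.59, adjusted p = 0.0331). Klf10 went from 10.7, 9.93, 6.98 and 13.5 CPM to 19.4, 20.8, 24.6 and 28.4 CPM, with no overlap. In insulin and feeding signals 2 of 26 rose and 1 fell. Trib3, an inhibitor of AKT that the endoplasmic reticulum stress list also holds, went from 1.89, 5.13, 3.63 and 6.34 CPM to 10.2, 13.4, 11.7 and 20.4 CPM (log2 1.71, adjusted p = 0.0171). Pnpla2, the first lipase of triglyceride breakdown, rose by 0.55 (adjusted p = 0.012), and the leptin receptor gene Lepr fell by 0.85 (adjusted p = 0.0289), or by 0.46 without mouse 48 of ZT0 (adjusted p = 0.215).

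Fat, bile acid, drug and heme metabolism had 1 or 2 called rises per list. Angptl4, a lipoprotein lipase inhibitor, was the 1 of 33 genes of fatty acid oxidation and PPARA targets to pass (44.7 ± 14.9 to 95.7 ± 38.4 CPM, log2 1.10, adjusted p = 0.0328). Its groups overlapped, with mouse 2 of ZT4 at 40.5 CPM. Of 26 bile acid genes Akr1c6 (log2 0.52, adjusted p = 0.0127) and the sterol transporter gene Abcg5 (0.56, adjusted p = 0.0449) rose. Cyp2e1, the ethanol-oxidising P450, was the 1 of 30 drug metabolism genes linked to D-box factors to pass. It stood at 3583 to 4614 CPM at ZT0 and 5161 to 8651 CPM at ZT4 (log2 0.71, adjusted p = 0.0255). The heme synthesis gene Urod rose by 0.29 (1 of 13, adjusted p = 0.0467).

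In the remaining lists with 1 called member the called share, 3.33% to 6.25% of members, was near the background of 4.48%, and the single members that passed are given as values only. Of the genes named from the lists of metabolism, signals, stress and growth, Prdx1 alone kept its call without mouse 8 of ZT4. The antioxidant Prdx1 rose from 952, 886, 856 and 803 CPM to 1076, 1285, 1165 and 1268 CPM (1 of 24 NRF2 targets, log2 0.46, adjusted p = 0.00854), also without mouse 8. The lysosomal channel gene Mcoln1 rose by 0.26 (1 of 20) and the respiratory gene Ndufa4 by 0.39 (1 of 22). Bmp6, the endothelial signal for hepcidin, fell by 0.49 (1 of 19 genes of iron and BMP signalling). Fosl2, an AP-1 member, fell by 0.77 (1 of 26 immediate early genes), the actin linker Flna by 0.56 (1 of 16) and the ribosome assembly gene Utp20 by 0.43 (1 of 30). Cdkn1a was the 1 of 22 glucocorticoid responsive genes and the 1 of 24 cell cycle regulators to fall.

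In 10 lists edgeR called no gene: cholesterol synthesis, fatty acid synthesis, amino acid breakdown and urea cycle, NAD metabolism, heat shock proteins, cold-inducible RNA binding proteins, metallothioneins, acute phase proteins, cytosolic ribosomal proteins and polyamines. Their medians lay between -0.08 and 0.20. The 35 cytosolic ribosomal protein genes all lay above 0, at 0.12 to 0.30, with a KO median of -0.11. The numbers at an unadjusted p under 0.05 were 0, 3, 9, 5, 5, 4, 1, 1, 10 and 3 in that order. The lists held 24, 24, 31, 19, 26, 11, 8, 25, 35 and 12 tested genes, and 23.6% of all genes tested had such a p. DESeq2 called 2 genes of fatty acid synthesis and 1 each of amino acid breakdown, NAD metabolism and ribosomal proteins. Against the background of 4.48%, the called share of the lists of metabolism was highest for glycogen (14.3% of 14 genes), insulin and feeding signals (11.5% of 26) and gluconeogenesis and glycolysis (9.09% of 22). The median of 25 male-biased liver genes was 0.80 and that of 27 female-biased genes -0.54, with 0 called in both by edgeR. At an unadjusted p under 0.05 there were 10 male-biased and 3 female-biased genes, against the same 23.6% of all genes, and DESeq2 called 2 and 0. The summed male-biased level ran from 3216 to 9731 CPM at ZT0 and from 7358 to 16095 CPM at ZT4, so the groups overlapped.

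Of the cell types, liver endothelium had called falls. Among 13 markers 6 were lower and 0 higher, with a median of -0.34, and none was at 0. Over all genes tested 2.68% were lower, and among the longest genes (from 5137 bases) 8.5%. The 6 were the scavenger receptors Stab1 and Stab2, the hyaluronan receptor Lyve1, the VEGF receptor Kdr, the junction gene Cdh5 and Oit3. Lyve1 stood at 31.0, 36.7, 37 and 53.7 CPM at ZT0 and at 18, 21, 20.8 and 22.7 CPM at ZT4 (log2 -0.94, adjusted p = 0.0178). Kdr stood at 104, 108, 115 and 138 CPM at ZT0 and at 84.3, 75.1, 82.9 and 80 CPM at ZT4 (log2 -0.53, adjusted p = 0.0118). In both genes every ZT4 mouse lay below every ZT0 mouse. The 13 markers summed to 676, 722, 727 and 803 CPM at ZT0 and to 599, 521, 582 and 568 CPM at ZT4, again with no overlap. In KO liver the sums were 601 to 779 and 613 to 714 CPM, and the median of the list was -0.03.

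Not all endothelial markers went down. Clec4g, Egfl7 and Ramp2 had log2 fold changes of 0.07, -0.03 and 0.11. These 3 have the shortest transcripts of the list (1442, 1865 and 1478 bases), whereas those of Stab1, Stab2 and Kdr have 7999, 8228 and 5924 bases. Vwf, with the longest transcript of the list (8834 bases), was not called either (-0.08, adjusted p = 0.752). The count of 6 was 4 without mouse 48 of ZT0, 5 without mouse 3 of ZT4 and 0 without mouse 8 of ZT4, when the median was -0.39. In bulk tissue, fewer cells of a type and less RNA per cell cannot be told apart. Among 13 stellate and fibroblast markers Reln and Pdgfrb fell (median -0.08), where 2.68% of all genes tested were lower. None of the markers of Kupffer cells, cholangiocytes, T and NK cells, B cells, neutrophils or erythroid cells was called by edgeR. DESeq2 called 1 cholangiocyte marker, and an unadjusted p under 0.05 was reached by 1, 2, 0, 0, 0 and 1 markers in that order. Of all genes tested 23.6% reached it.

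Transcript length moved with the step across all genes. Lengths are those of the longest GENCODE M21 transcript of each gene, matched by Ensembl ID for 97.1% of tested genes. The median was 2213 bases for the rises, 6403 bases for the falls and 3251 bases for all tested genes. Genes were then put in 5 equal groups by length. Among the shortest genes (up to 1818 bases) 86 were called higher and 7 lower, and the median log2 fold change was 0.18. Among the longest (from 5137 bases) 15 were called higher and 245 lower, and the median was -0.19. Each library was also given a slope, the change of log2 CPM, relative to the gene's mean over all libraries, per doubling of length. The slopes were 0.0717, 0.0955, 0.0497 and 0.135 at ZT0 and -0.0386, -0.00387, -0.0414 and -0.0543 at ZT4. The groups did not overlap. In KO liver they did, at -0.00863 to 0.0788 and -0.0387 to 0.0392. The 4 control mice of ZT20 also had slopes above 0 (0.0414 to 0.0668).

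With the length trend of each library removed, an alternative added after the data were seen, 155 genes rose and 131 fell. Of the 664 calls 219 were shared by both fits in the same direction. The median of the longest genes was then 0.0074. The clock lists changed little, with 5 of 15 E-box genes higher (median 1.25) and 3 of 6 activators and REV-ERB targets lower (median -1.12). Rgs16 and Nr1d1 missed the threshold (adjusted p = 0.0501 and 0.0556), and Bhlhe41 in place of Dbp met the rule for a switched gene. The endothelial falls were then Lyve1, Kdr, Cdh5 and Oit3, while Stab1 and Stab2 had adjusted p of 0.112 and 0.101. None of the 13 stellate and fibroblast markers was then called. The median of the 35 cytosolic ribosomal protein genes, whose median length was 1270 bases, went from 0.20 to 0.08. In all, 23 of the 56 called named genes lost the call. Among them were Rgs16, Nr1d1, Stab1 and Stab2. Others were Per3, Klf10, Klf15, Cyp2e1, Abcg5, Gys2, Ndufa4, Urod, Mcoln1, Utp20, Flna, Chst2, Fosl2, Adra2b, Lepr, Caskin2, Nt5e and Loxl4. RNA quality values were not analysed here, and the part of RNA quality or library preparation in the trend was not tested.

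**Figure D3:**
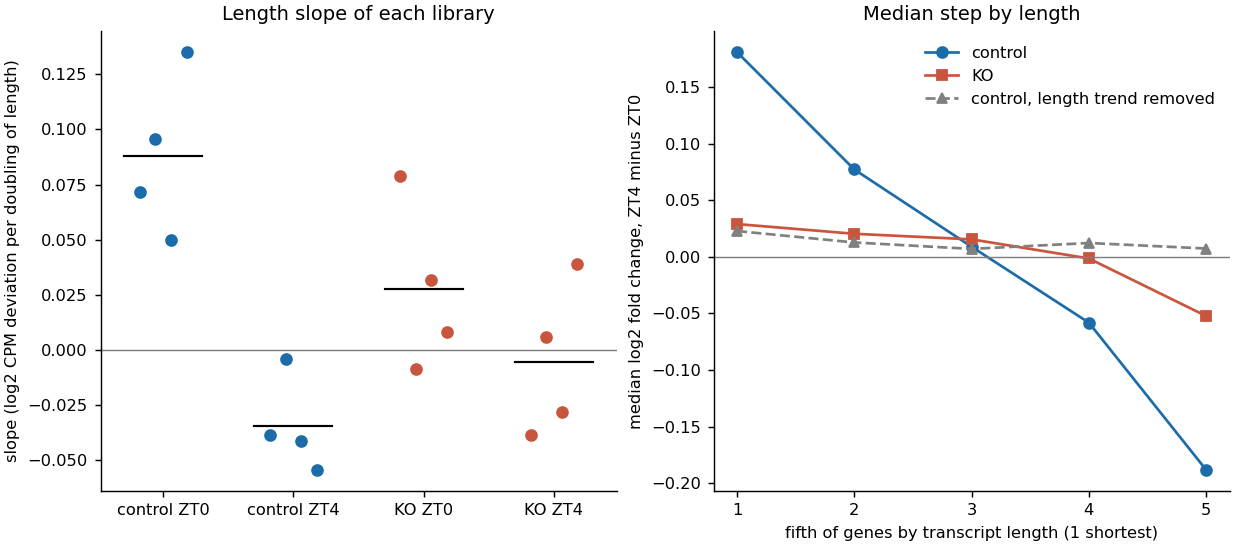
Left, the slope of log2 CPM deviation per doubling of transcript length in each library of the 4 groups (points) with group means (bars). Right, the median log2 fold change from ZT0 to ZT4 in 5 equal groups of genes by length, for control, KO, and control with the length trend removed; control runs from 0.18 in the shortest genes to -0.19 in the longest.

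The KO mice offer the same step with the same cage letters (1 mouse of each time was housed individually) and no shared library. Some cages held both genotypes. Cage C6 of ZT0 held control mouse 42 and KO mouse 41, and cage A3 of ZT4 held control mouse 4 and KO mouse 5. In KO liver 0 genes were called by edgeR (0%), and 753 had an unadjusted p under 0.05 (5.08%), against 3495 (23.6%) in control. DESeq2 also called 0. The median SE of a log2 fold change was 0.146 in both genotypes. Both values come from a fit that shares each gene's spread over all 48 libraries, so they do not compare the spread of the genotypes. Within groups, the median SD of log2 CPM was 0.199 at ZT0 and 0.170 at ZT4 in control, and 0.222 and 0.171 in KO. The 267 rises of control had a median of 0.04 in KO, where 172 were above 0. The 397 falls had a median of -0.06 in KO, where 246 were below 0. Both sets were chosen by their control change, which favours smaller KO than control medians in advance. Values of both steps for Npas2 were -2.33 and -1.48, the nearest among the 4-fold genes.

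The difference between the steps was itself tested and was called for 2 genes of 14836 (0.0135%) by edgeR, 31 by DESeq2, with 1928 at an unadjusted p under 0.05. They were Gfod1 and Adra2b (adjusted p = 0.0163 for both). Gfod1 stood at 9.05, 7.73, 8.79 and 6.37 CPM at ZT0 and at 3.19, 2.60, 2.83 and 2.83 CPM at ZT4 in control. In KO it stood at 5.59, 3.45, 3.79 and 3.10 CPM and at 5.08, 2.81, 4.67 and 4.51 CPM. The control groups were well apart and the KO groups overlapped. The control step of Gfod1 had the smallest p of all genes (log2 -1.48 ± 0.20 SE, adjusted p = 0.00011), and the KO step was 0.10.

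Adra2b, an adrenergic receptor gene, stood at 12.5, 13.2, 13.0 and 15.7 CPM at ZT0 and at 8.59, 5.82, 8.98 and 7.58 CPM at ZT4 in control. In KO it stood at 12.6, 6.90, 5.59 and 7.99 CPM and then at 16.4, 15.6, 13.2 and 22.2 CPM. The groups did not overlap in either genotype, and they moved in opposite directions. Adra2b fell in control (log2 -0.81, adjusted p = 0.0408), while its KO change of 1.02 did not pass (adjusted p = 0.803). The count of 2 genes rested on single mice: it was 28 without KO mouse 41 of ZT0, 8 without control mouse 4 of ZT4, 6 without KO mouse 5 of ZT4, 1 without control mouse 42 of ZT0 or KO mouse 6 of ZT4, and 0 without any one of control mice 47, 3 and 8 or KO mice 43, 44, 46, 1 and 7. The next genes by this test were Nbeal2, Chst2, Cd34 and Slc34a2, with adjusted p of 0.0506, 0.0603, 0.0645 and 0.0645. Dbp, in spite of steps of 5.18 and 0.20, had an adjusted p of 0.141, its KO mice running from 3.78 to 61.8 CPM over both times.

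**Figure D4:**
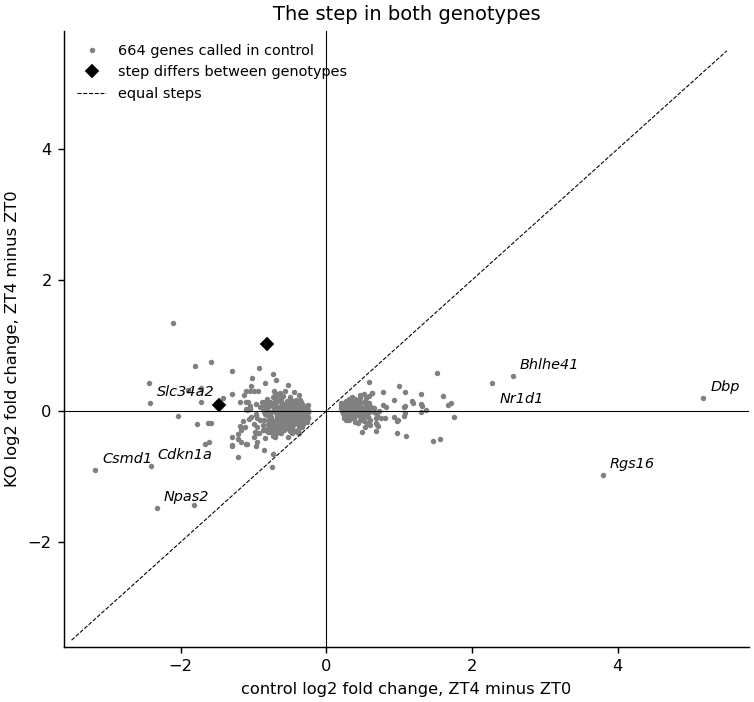
Log2 fold change from ZT0 to ZT4 in control (x axis) and KO (y axis) liver for the 664 genes called in control. Points lie near the horizontal line of no KO change rather than on the dashed line of equal steps. The genes were chosen by their control change, which favours such a picture in advance. Diamonds mark the 2 genes whose step differed between genotypes, Gfod1 and Adra2b.

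The place of the step in the 6 control means differed among genes. Of the 267 rises, 181 had their lowest control mean at ZT0, and the highest mean fell at ZT4 for 95 and at ZT8 for 119. Of the 397 falls, 306 had their highest mean at ZT0, and the lowest fell at ZT4 for 205 and at ZT8 for 120. Both sets were chosen by the same ZT0 and ZT4 levels, which favours extremes at these times in advance. The counts thus do not by themselves place the step in the cycle. Dbp went on from 35.7 to 146 ± 6.02 CPM at ZT8, and its step from ZT0 to ZT4 made up 72.0% of the log2 range of its 6 control means. For Rgs16 and Bhlhe41 the share was 69.5% and 64.2%, with both peaking at ZT8. Nr1d1 had its highest mean at ZT4, and its mean had already risen from 3.90 CPM at ZT20 to 27.9 CPM at ZT0.

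Falling genes differed in how far they still had to go. Slc34a2 went on from 107 to 14.5 CPM at ZT8, and Npas2 from 2.93 to 0.173 CPM at ZT8 and 0.0678 CPM at ZT12. Cdkn1a reached 2.65 CPM at ZT8. Gfod1 was at its lowest at ZT4, with 88.5% of its log2 range in the step, and Cry1 too had its lowest mean at ZT4. Arntl had only 22.2% of its range in the step, and its mean dropped from 18.2 CPM at ZT4 to 1.35 CPM at ZT8.

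**Figure D5:**
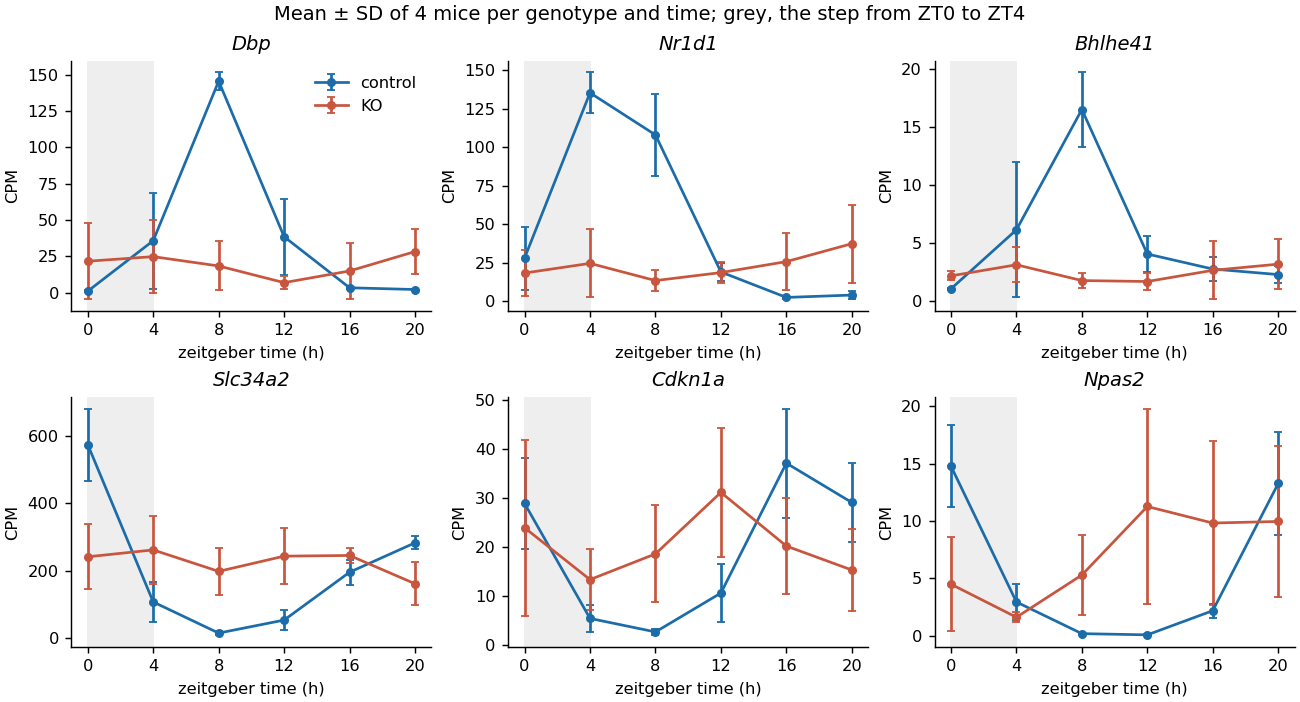
Mean level in CPM with SD of 4 mice at 6 zeitgeber times in control and KO liver, for 6 of the 4-fold genes, with the step from ZT0 to ZT4 in grey. In control, Dbp and Bhlhe41 peak at ZT8 and Nr1d1 at ZT4, while Slc34a2 and Cdkn1a reach their lowest mean at ZT8 and Npas2 at ZT12.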

How the data were processed

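Per the submitters' processing notes, the authors called bases with CASAVA, aligned reads with STAR 2.4.0f1 and used mouse build mm9; gene models, the counter and the handling of multiply mapped reads are not given in the sources used here. The authors deposited 1 table of integer counts per gene (23732 genes, 48 libraries). The libraries had been brought to nearly equal totals by a step that is not described. Poly-A libraries were made with an unstranded kit, so overlapping antisense genes cannot be told apart.

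Counts were tested with edgeR 4.0.16 (R 4.3.3): filterByExpr with a minimum count of 10 left 14836 genes (99.975% of counts), TMM scaling, 1 mean for each of 12 groups, 36 residual degrees of freedom. The contrasts were ZT4 minus ZT0 in control, the same in KO, and their difference, with Benjamini-Hochberg adjustment over all genes. CPM are TMM-scaled, given as mean and SD over mice. Alternatives used DESeq2 1.42.0 and limma 3.58.1 (cage as a random block, correlation 0.0806). The length trend was a lowess curve (span 0.5) of each library.

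The comparison, its members and the 44 gene lists were chosen with earlier results of these data known. Named genes are the switched genes; the 12 largest 4-fold rises and falls with 5 CPM; all clock list members; up to 4 called members with the smallest p of each list that is not a cell type list; the 6 smallest p of the difference between steps; and the 2 genes on each side of the 4-fold threshold. Others were added after their values were seen, and are marked so. Cell type lists are given as counts. Gene positions are mm9 as deposited. Promoters are RefSeq GRCm38.p6. A few members of the lists are counted but not reported here by name.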

Additional observations from a re-analysis of the deposited data

Results flagged for a closer look

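In 68 groups of 4 mice (34 genes at 2 times), 6 had 1 mouse far from the other 3. The limit used flags about 1 in 20 independent groups of normally distributed values. Here CPM were not transformed and all groups come from the same 8 mice, so that rate does not apply to the count of 6. All 6 were high values, in mice 42, 48 and 8. At ZT0, mouse 48 had 2.079 CPM of Dbp against 0.522 to 0.6484 in the others. Mouse 42 had 86.78 CPM of Bhlhe40 against 30.53 to 38.62, 79.67 CPM of Hlf against 58.44 to 59.57, and 131.3 CPM of Clock against 97.26 to 101.8. At ZT4, mouse 8 had 84.45 CPM of Dbp against 11.67 to 23.83, and 14.74 CPM of Bhlhe41 against 2.08 to 4.198. The step differed between control and KO liver for Gfod1 (log2 difference -1.573, edgeR adjusted p = 0.0163) and Adra2b (-1.835, adjusted p = 0.0163).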

How the results depend on the processing

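No paired analysis was possible because the mouse numbers are not shared between times. The KO step had 0 calls in each setting run, and the count switched off was 0 except without mouse 2 of ZT4 (Gm15622). Higher and lower genes (267 and 397) numbered 97 and 852 with total counts, 113 and 169 without a low-count filter, 521 higher with DESeq2, 644 and 842 with the 24 WT libraries, 33 and 195 with the 8 libraries of the step, 172 and 254 with cage as a block, 3 and 13 at an adjusted p under 0.01, 745 and 974 without the 4 KO libraries farthest from their groups (added later) and 155 and 131 with the length trend removed (added later). Leaving out 1 mouse gave 6 to 182 higher and 18 to 314 lower. The 4-fold rises (4) were 2 with the 8 libraries, 1 at 0.01 and 2 with the length trend removed; without single mice they numbered 1 to 4. The 4-fold falls (5) were 3 with a 1 CPM filter, DESeq2 or the 8 libraries, 1 at 0.01 and 2 to 10 without single mice. Switched on (1) became 0 with total counts, the 8 libraries or a 0.5 CPM limit, 3 with a 2 CPM limit, and 0 to 1 when 1 mouse was left out; switched off was 0 to 1. Steps that differed (2) were 7 with total counts, housing or cage in the model, 31 with DESeq2, 0 with the 16 libraries of the 2 times, at 0.01 or without the 4 KO libraries. Without single mice they ranged from 0 to 28. The cause of these differences was not tested.

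None of the 56 called named genes changed sign. Uncalled clock genes near 0 did. With total counts Nono was at -0.0097, Btrc at -0.026, Hlf at -0.048, Fbxl21 at -0.059 and Csnk1d at -0.085; Csnk1d was at -0.0059 with the 8 libraries and Nampt at 0.052 with the length trend removed. When 1 mouse was left out, the lowest and highest values were -0.0016 and 0.15 for Btrc, -0.0204 and 0.032 for Csnk1d, -0.063 and 0.16 for Hlf, -0.0696 and 0.044 for Nampt, -0.14 and 1.02 for Per2, -0.094 and 0.88 for Usp2 and -0.034 and 0.47 for Wee1. The number of mice limits the precision, and for Apln and Csmd1, at about 3 reads or fewer at ZT4, depth does as well.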

Other observations

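The rises included genes of the proteasome, the complex that degrades tagged proteins, a family picked after the values were seen. Of 37 genes with symbols of proteasome subunits, 12 were higher at ZT4 in control and 0 lower (1.8% and 2.68% of all genes tested, and 2.67% and 0.659% of genes of 1819 to 2787 bases), with a median log2 fold change of 0.28 (0.0054 in KO). Their median transcript length was 1883 bases, and with the length trend removed 3 were higher and the median was 0.16. The part of length in this count was not tested beyond that fit.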
